A study of Mus musculus with 8 samples.

Results

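The expression of 9 genes that set entry into and exit from the cell cycle, 6 cyclin-dependent kinase inhibitors and the 3 D cyclins, was followed by RNA-seq in PRC2 mutant mouse cells before and after directed differentiation. The genes were taken by symbol: *Cdkn2a*, *Cdkn2b*, *Cdkn2c* and *Cdkn2d* of the Ink4 family, *Cdkn1a* and *Cdkn1b* of the Cip/Kip family, and *Ccnd1*, *Ccnd2* and *Ccnd3*. All 9 were found among the 36808 genes of the deposited table, and all 9 reached 0.1 FPKM (mapped fragments per transcript length and library size) in each of the 8 libraries. Wild-type libraries came from E14 (129/Ola) embryonic stem cells (ESCs), from E14 cells at day 5 of spinal motor neuron (SMN) differentiation, and from ESCs of a further wild-type line, CJ7 (129/S). The mutants were Suz12GT (129/Ola), a gene trap whose SUZ12-β-galactosidase fusion leaves part of the H3K27me3, Suz12delta (C57/BL6), which carries truncated SUZ12, and Eednull (BALB/cR1), which carries a point mutation in *Eed*. The last pair of lines, which have lost nearly all bulk H3K27me3, are called null lines here and were measured as ESCs and at day 5, while Suz12GT was measured at day 5. ESCs were grown on irradiated mouse embryonic fibroblasts in serum with LIF, and a brief plating step was used to remove the fibroblasts before collection or differentiation. Each condition was 1 library and each genotype 1 line. No test could therefore be made, no value carries a replicate error, and line, strain background and genotype cannot be told apart.

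D cyclins bind CDK4 and CDK6 and start the phosphorylation of the retinoblastoma protein, which frees E2F factors to turn on the genes of S phase. Ink4 proteins block CDK4 and CDK6 directly, whereas the Cip/Kip proteins p21 (*Cdkn1a*) and p27 (*Cdkn1b*) bind cyclin-CDK complexes more broadly and act late at CDK2. PRC2 places H3K27me3, a histone mark of gene silencing, and the *Cdkn2a*-*Cdkn2b* locus is a classical Polycomb target whose release from silencing accompanies senescence in cultured fibroblasts. ESCs have a short G1 phase, and the exit of neural progenitors from the cycle during neuron formation is accompanied by high levels of Cip/Kip and Ink4 inhibitors.

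*Cdkn2a* encodes p16Ink4a from a downstream first exon and p19Arf, which restrains MDM2 and so stabilises p53, from an upstream first exon spliced to the same second exon in another reading frame. It lies on the minus strand of chromosome 4 in NCBI build 37 (mm9) from 88920377 to 88940557, and *Cdkn2b*, which encodes p15Ink4b, lies 11.6 kb further, from 88952198 to 88956941 on the same strand. In GENCODE vM1 the transcript from the downstream start shares 643 of its 850 exonic bases with that from the upstream start, so the single FPKM of *Cdkn2a* holds p16Ink4a and p19Arf together and does not tell which of them was measured. The 250 bases before each start of the locus are shown with every CpG in capitals. CpG-rich starts are the typical seat of PRC2 in mammals, and these windows differed in CpG count. They were read 5′ to 3′ along the minus strand from the NCBI build 37 genome, at chr4:88940558-88940807 for the upstream start, chr4:88928097-88928346 for the downstream start and chr4:88956942-88957191 for *Cdkn2b*.
Cdkn2a, upstream (Arf) start: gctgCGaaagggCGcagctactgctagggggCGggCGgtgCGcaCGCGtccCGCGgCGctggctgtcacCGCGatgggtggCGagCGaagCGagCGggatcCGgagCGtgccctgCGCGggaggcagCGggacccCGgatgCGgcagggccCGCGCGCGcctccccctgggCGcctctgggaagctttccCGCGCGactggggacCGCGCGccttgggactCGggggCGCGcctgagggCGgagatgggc
Cdkn2a, downstream (Ink4a) start: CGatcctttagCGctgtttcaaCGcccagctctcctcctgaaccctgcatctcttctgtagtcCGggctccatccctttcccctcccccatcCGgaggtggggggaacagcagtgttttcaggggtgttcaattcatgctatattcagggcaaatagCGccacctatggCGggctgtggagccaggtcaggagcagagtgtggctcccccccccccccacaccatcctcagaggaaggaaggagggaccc
Cdkn2b start: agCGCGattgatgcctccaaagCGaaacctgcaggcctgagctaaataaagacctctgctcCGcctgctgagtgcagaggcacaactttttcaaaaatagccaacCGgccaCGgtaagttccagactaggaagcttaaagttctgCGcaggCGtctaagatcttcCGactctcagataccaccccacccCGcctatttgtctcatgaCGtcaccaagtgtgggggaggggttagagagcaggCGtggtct

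These windows held 38, 7 and 12 CpG, against a median of 8 and quartiles of 3 and 18 over the same window of 22362 protein-coding genes. The Arf window had more CpG than 97.8% of all windows, while that of Ink4a had more than 44.2% of them. Bases after each start, in the first exon, were not counted, so these values do not describe the whole of a start. GGGCGG, the core of the GC box read by SP1-type factors, was searched on both strands. It was present in 5 of the 10 windows of the 9 genes and in 39.6% of all windows, and the Arf window held 3 matches that included overlapping ones. TTTCGCGC and TTTGGCGC, typical E2F sites, occurred in 0 of the 10 windows and in 0.76% of all windows. TATAAA was likewise found in 0 of 10 windows and in 12.3% of all windows.

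The start of *Cdkn1a*, on the plus strand of chromosome 17, is shown for another reason: its annotated 5′ window, chr17:29227674-29227923, holds a match to the p53 response element in capitals, 20 bases with 1 mismatch allowed. Such a match was present in 0.0492% of all windows and in 1 of the 10 windows described here.
Cdkn1a start: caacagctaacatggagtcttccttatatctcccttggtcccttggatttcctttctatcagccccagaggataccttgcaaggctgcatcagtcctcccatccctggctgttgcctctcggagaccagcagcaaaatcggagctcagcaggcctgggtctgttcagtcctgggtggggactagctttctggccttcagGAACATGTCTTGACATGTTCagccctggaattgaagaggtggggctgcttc

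The targeted genes were read first. *Suz12* was listed at 6.21 FPKM in Suz12delta ESCs, against 41.3 in E14, 53.1 in CJ7 and 35.7 in Eednull ESCs, and at day 5 at 16.2 in E14, 10.3 in Suz12GT, 11.6 in Suz12delta and 17.6 in Eednull cells. *Eed* was at 42.4 FPKM in Eednull ESCs and at 32.7 in E14 ESCs, and a point mutation need not lower its RNA. Motor neuron and neuronal markers summed to 313 FPKM in E14 and 507 in Suz12GT day 5 cells. The higher Suz12GT sum lay mainly in *Stmn2* (203 FPKM against 101 in E14), *Nefm* (99.1 against 40.1) and *Dcx* (101 against 63.7). *Olig2* was lower in Suz12GT, at 10.5 against 22.1 FPKM. *Mnx1* (15.4 against 16.7) and *Lhx3* (25.3 against 25.8) hardly differed, and *Isl1* was at 22.8 against 18.1. In Suz12delta and Eednull day 5 cells the markers summed to 18.6 and 15.0 FPKM, with *Olig2* listed at 0.107 and 0.0455 FPKM. The day 5 libraries of the null lines are therefore named here by stage and not by cell type. Endoderm markers summed to between 31.0 and 44.2 FPKM in the 3 mutant day 5 libraries and to 3.73 in E14 day 5 cells. In ESCs they summed to 1.36 FPKM in E14, 2.47 in CJ7, 7.79 in Suz12delta and 31.4 in Eednull cells. In Eednull ESCs 6 of the 6 measured were at least 2-fold above E14, against 22.4% of all genes. Their median log2 ratio was 3.98, and 3.41 against CJ7. The part of cells with these markers in the Eednull ESC values was not tested. The Suz12delta ESC library stood apart in 3 ways: a pluripotency marker sum of 491 FPKM against 909 to 1139 in the other ESCs, a fibroblast marker sum of 585 against 93.5 to 276, and a median log2 ratio over all genes to E14 of -0.28. By its label and the column names, the CJ7 library was made and sequenced in the same batch as that of Eednull ESCs, so the main values of Eednull ESCs are also given against CJ7. No reads or counts were used here, so the depth of each library is unknown.

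*Cdkn2a* was higher in every mutant library than in every wild-type library. Its level was 10.1 FPKM in E14 ESCs and 10.6 in CJ7 ESCs, and it was 40.3 in Suz12delta and 28.8 in Eednull ESCs. The day 5 levels were 3.11 FPKM in E14, 32.0 in Suz12GT, 60.9 in Suz12delta and 66.6 in Eednull cells. The 5 mutant libraries thus did not overlap with the 3 wild-type libraries, and the lowest mutant value was that of Eednull ESCs. Of all genes that reached 0.1 FPKM in some library, 3.1% had all mutants above all wild-type libraries, and *Cdkn2a* was the only 1 of the 9 genes to do so. As log2 ratios of FPKM plus 0.1, the differences from E14 were 1.99 in Suz12delta and 1.51 in Eednull ESCs, the latter 1.44 against CJ7. At day 5 they were 3.32 in Suz12GT, 4.25 in Suz12delta and 4.38 in Eednull cells.

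*Cdkn2b* was also higher in the mutants than in E14 at each stage, at lower levels than *Cdkn2a*. It was listed at 3.29 FPKM in E14, 2.81 in CJ7, 9.53 in Suz12delta and 9.14 in Eednull ESCs. At day 5 the values were 0.208 FPKM in E14, 2.35 in Suz12GT, 10.8 in Suz12delta and 8.34 in Eednull cells. Here the wild-type ESCs were above Suz12GT day 5 cells, so the mutants and the wild-type separated within each stage but not across stages. *Cdkn2a*, *Cdkn2b* and *Ccnd1* had such a separation upwards at both stages, as had 8.56% of all genes. The log2 ratio to E14 at day 5 was 2.99 in Suz12GT, 5.15 in Suz12delta and 4.78 in Eednull cells, with a very low E14 value beneath each of them. In ESCs it was 1.51 in Suz12delta and 1.45 in Eednull cells, the latter 1.67 against CJ7. Per length of transcript, *Cdkn2a* exceeded *Cdkn2b* 3.05- to 4.23-fold in the 4 ESC libraries and 5.62- to 15.0-fold in the 4 day 5 libraries.

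*Cdkn2c*, which encodes p18Ink4c and is on chromosome 4 from 109333481 to 109339794, was the least abundant of the 9 genes in most libraries. It was at 0.221 FPKM in E14, 0.734 in CJ7, 1.79 in Suz12delta and 1.38 in Eednull ESCs. Day 5 cells had 1.79 FPKM in E14, 1.15 in Suz12GT, 3.47 in Suz12delta and 4.84 in Eednull cells. The wild-type ESC lines themselves differed by a log2 ratio of 1.38, and against CJ7 the Eednull ESC ratio was 0.83 in place of 2.20. *Cdkn2d*, which encodes p19Ink4d and is on chromosome 9 from 21092907 to 21095653, went the other way. Its ESC values lay close together, at 2.88 FPKM in E14, 2.47 in CJ7, 1.91 in Suz12delta and 3.27 in Eednull cells. At day 5 it reached 9.35 FPKM in E14 and 12.7 in Suz12GT cells, but 4.25 in Suz12delta and 3.19 in Eednull cells. The null lines were thus below E14 at day 5 by log2 ratios of -1.12 and -1.52, and Suz12GT was 0.44 above it.

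**Figure D1:**
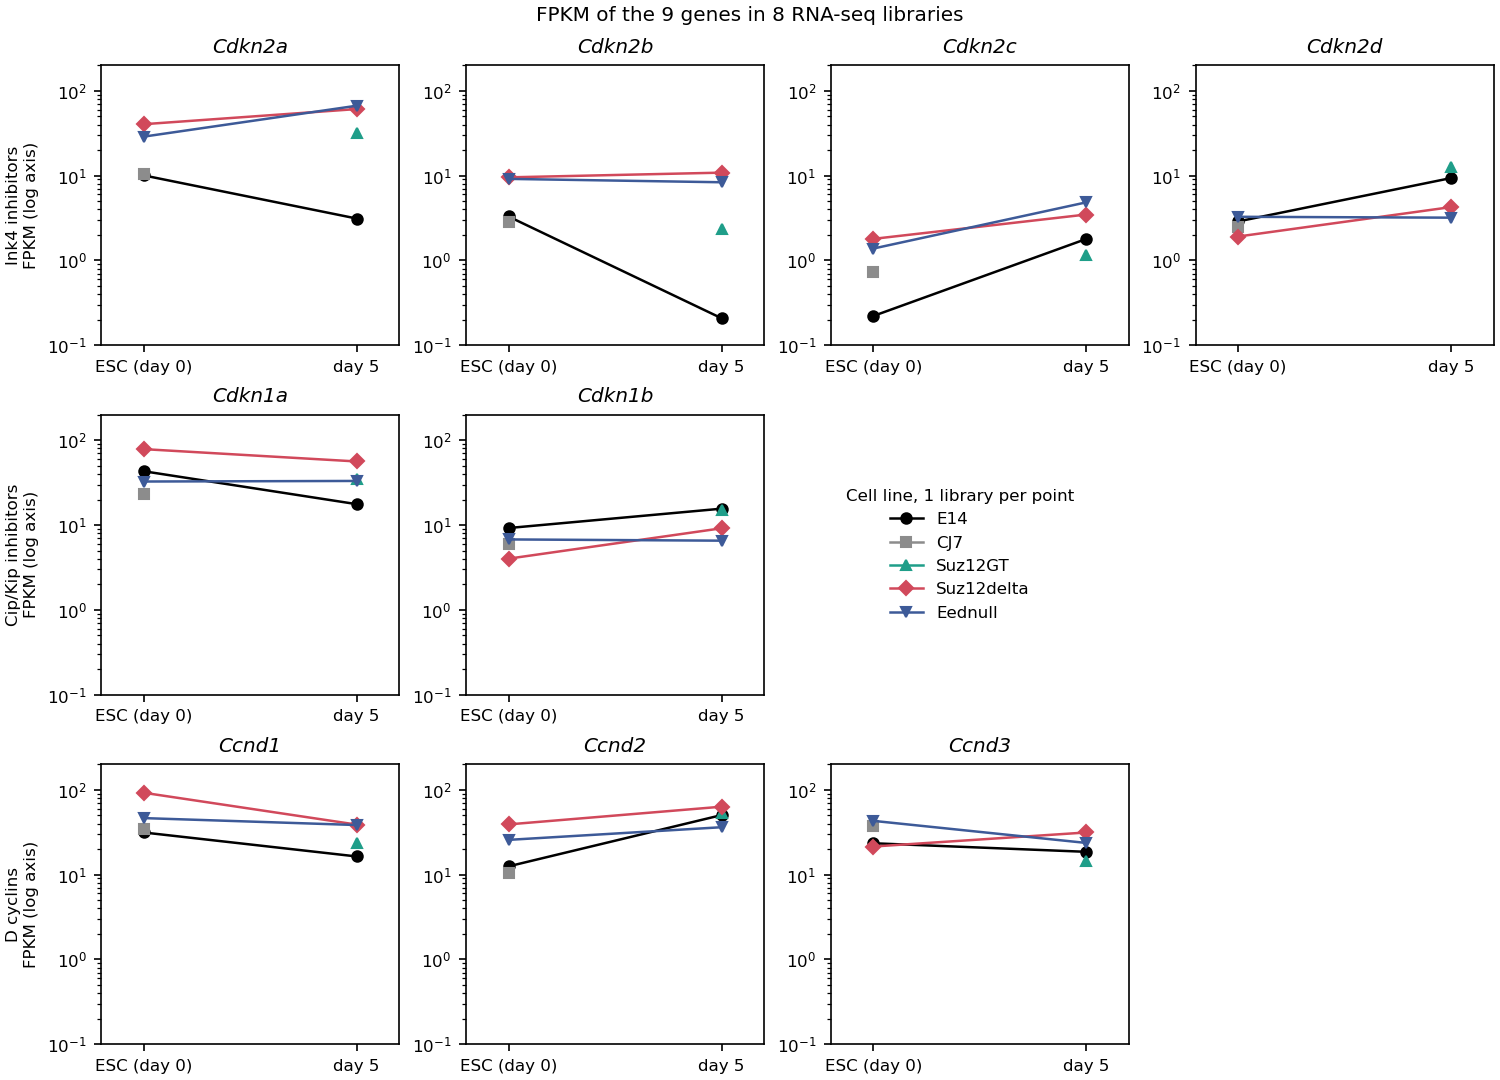
FPKM of the 9 genes on a log axis in ESCs (day 0) and at day 5, with 1 library per point, 1 colour and symbol per line, and lines that join the stages of a cell line. Both *Cdkn2a* and *Cdkn2b* go down from day 0 to day 5 in E14 (to 3.11 and 0.208 FPKM) and stay at 8.34 FPKM or more in the null lines.

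The Ink4 sum and its make-up describe these 4 genes together. They summed to 16.4 FPKM in E14, 16.6 in CJ7, 53.6 in Suz12delta and 42.6 in Eednull ESCs. At day 5 the sums were 14.5 FPKM in E14, 48.2 in Suz12GT, 79.4 in Suz12delta and 83.0 in Eednull cells. E14 cells hardly differed between stages in the sum, yet the leading gene did: *Cdkn2a* made up 61.1% of it in ESCs and 21.5% at day 5, and *Cdkn2d* 17.5% and then 64.7%. In the mutant day 5 cells *Cdkn2d* made up 26.4% in Suz12GT, 5.35% in Suz12delta and 3.84% in Eednull cells, and *Cdkn2a* at least 66.4%.

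*Cdkn1a*, which encodes p21 and is a direct target gene of p53, was the most abundant inhibitor in all 4 ESC libraries. It was at 43.1 FPKM in E14, 23.5 in CJ7, 78.6 in Suz12delta and 32.6 in Eednull ESCs, so the Eednull value lay between the wild-type lines. The day 5 values were 17.6 FPKM in E14, 34.6 in Suz12GT, 56.3 in Suz12delta and 33.1 in Eednull cells. All 3 mutants were above E14 at day 5, with log2 ratios of 0.97, 1.67 and 0.91, and only that of Suz12delta passed 2-fold. The wild-type ESC lines differed by a log2 ratio of -0.88, which is about as large as the Suz12GT and Eednull differences at day 5.

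*Cdkn1b*, which encodes p27 and lies on chromosome 6 from 134870419 to 134875531, was at 9.23 FPKM in E14, 6.02 in CJ7, 4.02 in Suz12delta and 6.77 in Eednull ESCs. At day 5 it was at 15.6 FPKM in E14 and 15.0 in Suz12GT cells, against 9.16 in Suz12delta and 6.55 in Eednull cells. The null lines were below the other libraries at day 5, by log2 ratios to E14 of -0.76 and -1.24, in the same order as for *Cdkn2d*. *Cdkn1c*, which encodes p57, the remaining Cip/Kip inhibitor, and is imprinted, was read beside them. It was at 26.1 FPKM in E14 and 28.7 in Suz12GT day 5 cells, and at 3.23 in Suz12delta and 3.17 in Eednull day 5 cells. Its ESC values were 7.43 FPKM in E14, 9.08 in CJ7, 3.06 in Suz12delta and 13.7 in Eednull cells. *Cdkn2d*, *Cdkn1b* and *Cdkn1c* were all lower in the null lines at day 5, beside neuronal marker sums that were lower too. In bulk RNA, fewer cells of a type and less RNA of a gene per cell cannot be told apart.

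**Figure D2:**
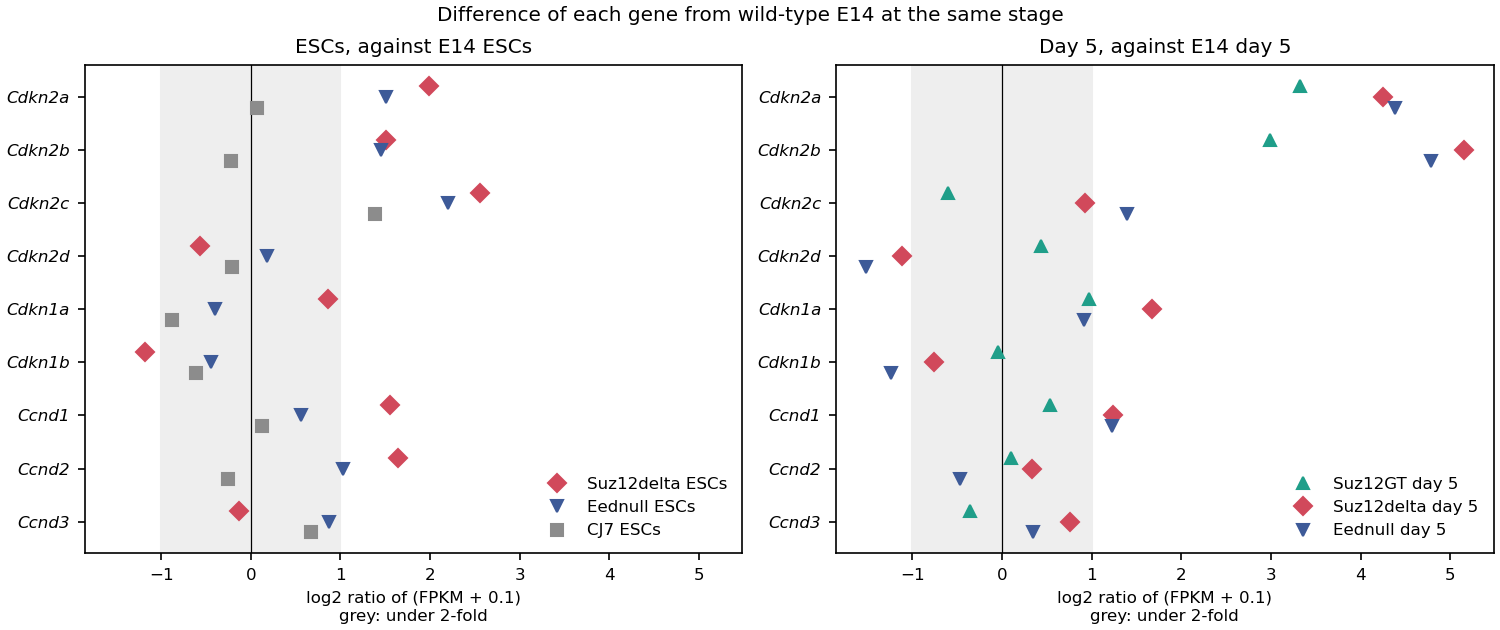
log2 ratio of FPKM plus 0.1 between each library and E14 of the same stage, for ESCs (left) and day 5 (right), with 1 symbol per line and differences under 2-fold in grey. At day 5 *Cdkn2a* and *Cdkn2b* stand at 2.99 or more in all 3 mutants, and *Cdkn2d* and *Cdkn1b* lie below 0 in both null lines.

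Among the D cyclins, *Ccnd1* (minus strand of chromosome 7, 152115836 to 152125774) led in ESCs of 3 of the 4 lines. It was at 31.4 FPKM in E14, 34.4 in CJ7, 92.2 in Suz12delta and 46.3 in Eednull ESCs. After differentiation it was at 16.4 FPKM in E14, 23.9 in Suz12GT, 38.8 in Suz12delta and 38.4 in Eednull cells. Each mutant value lay above those of the wild-type libraries of its stage, with log2 ratios to E14 of 1.55 and 0.56 in the null ESCs and of 0.54, 1.24 and 1.23 in the mutants at day 5. *Oraov1*, on the opposite strand, overlaps *Ccnd1*, and since no strand-specific counting is stated their reads cannot be told apart where they overlap. It was at 5.17 FPKM in E14 ESCs and 15.5 in Suz12delta ESCs.

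*Ccnd2* (minus strand of chromosome 6, 127075797 to 127101066) had a different pattern. Its ESC values were 12.5 FPKM in E14, 10.5 in CJ7, 39.1 in Suz12delta and 25.7 in Eednull cells, with both null lines above both wild-type lines, as for 17.6% of all genes. At day 5 it was at 50.3 FPKM in E14, 53.9 in Suz12GT, 63.2 in Suz12delta and 36.2 in Eednull cells, so the mutants lay on either side of E14. In ESCs the log2 ratio to E14 was 1.64 in Suz12delta and 1.03 in Eednull cells, the latter 1.28 against CJ7. The lincRNA *9330179D12Rik*, on the opposite strand, overlaps *Ccnd2*, with the same limit as for *Ccnd1*. It was at 0.455 FPKM or less in every library. In Suz12delta cells the genes of chromosome 6 lay, at the median, 0.205 (ESCs) and 0.272 (day 5) above those of the other autosomes on the log2 scale of the ratio to E14. In Eednull cells the same median was 0.038 in ESCs and 0.041 at day 5. *Cdkn1b* lies on chromosome 6 as well. The part of this shift in the values of either gene was not tested.

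*Ccnd3* (plus strand of chromosome 17, 47642000 to 47736632) differed less among the libraries than the other D cyclins. It was at 23.4 FPKM in E14, 37.4 in CJ7, 21.4 in Suz12delta and 43.0 in Eednull ESCs. At day 5 it was at 18.5 FPKM in E14, 14.4 in Suz12GT, 31.4 in Suz12delta and 23.6 in Eednull cells. In ESCs the higher pair of values belonged to CJ7 and Eednull, the libraries that were prepared together, and the batch and the lines cannot be told apart there. The loci that the table gives for the D cyclins reach beyond these GENCODE coordinates on 1 side. *Bysl*, on the opposite strand, overlaps *Ccnd3*, and was at 14.7 FPKM in E14 and 14 in CJ7 ESCs.

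The make-up of the D cyclins changed with stage and differed between lines at day 5. *Ccnd2* made up 18.6% of the summed FPKM of the D cyclins in E14 ESCs and 59.0% in E14 day 5 cells. At day 5 its share was 58.4% in Suz12GT, 47.4% in Suz12delta and 36.8% in Eednull cells, and *Ccnd1* had 25.9%, 29.1% and 39.1%, against 19.2% in E14. *Ccnd2* over *Ccnd1* was thus 3.08 in E14, 2.26 in Suz12GT, 1.63 in Suz12delta and 0.942 in Eednull cells at day 5, and between 0.306 and 0.554 in all 4 ESC libraries. The summed FPKM of the D cyclins was 67.3 in E14, 82.3 in CJ7, 153 in Suz12delta and 115 in Eednull ESCs. The sum of the 6 inhibitors over the sum of the 3 D cyclins was 0.56 in E14 day 5 cells and 1.06, 1.09 and 1.25 in Suz12GT, Suz12delta and Eednull day 5 cells, while in ESCs it was 1.02 in E14, 0.559 in CJ7, 0.892 in Suz12delta and 0.713 in Eednull cells, with both null lines between the wild-type lines.

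**Figure D3:**
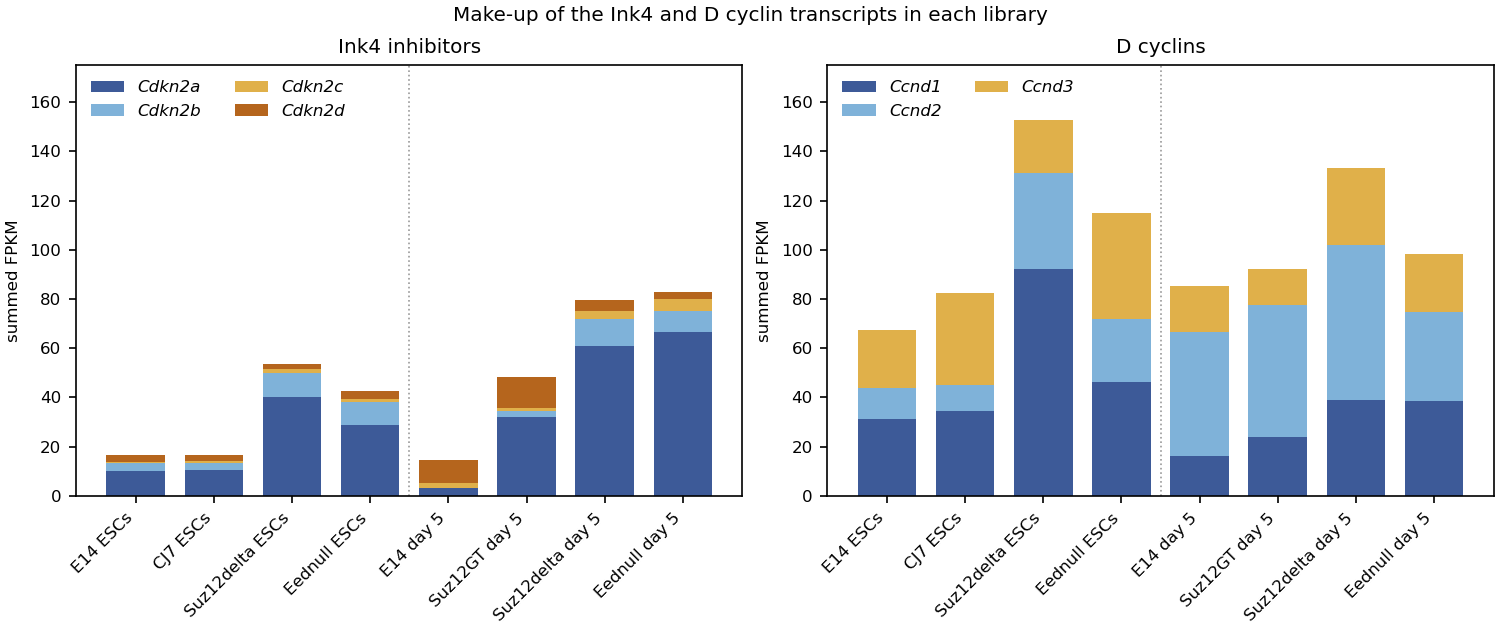
Summed FPKM of the 4 Ink4 genes (left) and of the 3 D cyclins (right) in each library, ESCs before and day 5 after the dotted line, 1 library per bar. *Cdkn2a* makes up most of the Ink4 sum in all libraries but E14 day 5, where *Cdkn2d* has 64.7%, and *Ccnd2* takes a larger share of the D cyclins at day 5 than in ESCs.

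The number of these genes past 2-fold was set beside the share of all genes past the same line, counting genes that reached 0.1 FPKM in either library. In Suz12delta ESCs 5 of the 9 were at least 2-fold higher than in E14 ESCs (background 18.0%) and 1, *Cdkn1b*, was lower (background 22.8%). In Eednull ESCs 4 were higher (22.4% of all genes) and 0 lower (11.9%). Between the wild-type lines, 1 gene, *Cdkn2c*, was higher in CJ7 than in E14 ESCs (15.7%) and 0 lower (14.7%). At day 5 in Suz12GT cells 2 were higher than in E14 (16.8%) and 0 lower (4.4%). For Suz12delta day 5 cells the counts were 4 higher (26.6%) and 1 lower (9.52%), and for Eednull day 5 cells 4 higher (21.6%) and 2 lower (11.3%). All comparisons at a stage share the E14 library.

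Genes that differed from all relevant wild-type libraries were fewer. Both null ESC lines were at least 2-fold above both wild-type ESC lines for *Cdkn2a*, *Cdkn2b* and *Ccnd2*, 3 of 9, against 4.5% of all genes, and 0 of 9 were below (1.73% of all genes). Without the Suz12delta ESC library the same 3 genes passed, against 14.1% of all genes. All 3 mutants were at least 2-fold above E14 at day 5 for *Cdkn2a* and *Cdkn2b*, 2 of 9, against 8.99%. Both null lines were at least 2-fold below E14 at day 5 for *Cdkn2d*, 1 of 9, against 7.67%. Scaling the libraries to a common 75th percentile moved the median log2 ratio of all genes from -0.28 to 0.07 for Suz12delta against E14 ESCs, and the share of higher among all genes past 2-fold from 44.1% to 62.7%. Relative to that median, the difference of *Cdkn2a* was 2.28, that of *Ccnd2* 1.92 and that of *Cdkn1b* -0.90.

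Over E14 differentiation 3 of the 9 genes were at least 2-fold higher at day 5 (18.3% of all genes) and 3 were at least 2-fold lower (25.8%). *Cdkn2c*, *Ccnd2* and *Cdkn2d* were higher, with log2 ratios of 2.56, 2.0 and 1.67, and *Cdkn2b*, *Cdkn2a* and *Cdkn1a* were lower, with -3.46, -1.66 and -1.29. In Suz12delta cells 2 were higher at day 5 (26.9%), *Cdkn2d* and *Cdkn1b*, and 1 lower (12.6%), *Ccnd1* at -1.25. In Eednull cells 2 were higher (18.4%), *Cdkn2a* and *Cdkn2c*, and 0 lower (24.8%). The log2 change of *Cdkn2a* was -1.66 in E14, 0.59 in Suz12delta and 1.21 in Eednull cells, and *Cdkn2a* was the only 1 of the 3 lower genes of E14 with a higher value at day 5 in both null lines. Among all genes at least 2-fold lower over E14 differentiation the share with a higher value in both was 17.0%. After 75th percentile scaling the change of *Cdkn2a* was 0.21 in Suz12delta and 1.18 in Eednull cells, and less the median of all genes it was 0.16 and 1.29. *Cdkn2b* had changes of 0.18 and -0.13 in the null lines. For Suz12delta cells, scaling to the 75th percentile moved the median of all genes over differentiation from 0.43 to 0.06 and the share of higher among the genes past 2-fold from 68.1% to 50.7%.

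Fibroblast markers moved with several of these genes and are given beside them, since the ESCs had been grown on fibroblasts and cultured fibroblasts express *Cdkn2a*, *Cdkn1a* and *Ccnd1*. All 12 markers, which include the collagen genes *Col1a1* and *Col1a2*, were at least 2-fold higher in Suz12delta ESCs than in E14 ESCs (median log2 ratio 2.39). In Eednull ESCs 5 of 12 were (0.85). The shares of all genes were 18.0% and 22.4%. All 12 were at least 2-fold lower in E14 cells at day 5 than at day 0 (-3.95), against 25.8% of all genes. Their summed FPKM was 93.5 in E14, 118 in CJ7, 585 in Suz12delta and 276 in Eednull ESCs, and 4.83 in E14, 18.8 in Suz12GT, 128 in Suz12delta and 70.3 in Eednull day 5 cells. Under 0.1 FPKM were 6 of the 12 in E14 day 5 cells, 1 in Suz12GT day 5 cells and 0 in the other libraries. *Ccnd1* nearly followed the order of these sums across the 8 libraries, with the Eednull day 5 value out of place. Within ESCs *Cdkn2a* also followed the order of the sums, with 10.1, 10.6, 28.8 and 40.3 FPKM beside 93.5, 118, 276 and 585. At day 5, 12 of 12 markers were at least 2-fold above E14 in Suz12delta (26.6% of all genes) and in Eednull cells (21.6%). In Suz12GT cells 9 of the 11 measured were (16.8%). The marker medians in Suz12delta, Eednull and Suz12GT cells were 4.29, 3.85 and 2.10, beside *Cdkn2a* ratios of 4.25, 4.38 and 3.32. Across stages the order was not kept: Suz12GT day 5 cells had 32.0 FPKM with a marker sum of 18.8, while E14 and CJ7 ESCs had 10.1 and 10.6 FPKM with sums of 93.5 and 118. In the null lines *Cdkn2a* was higher at day 5 than in ESCs, whereas the marker sums were lower. For *Cdkn2a*, *Cdkn2b*, *Cdkn1a*, *Ccnd1* and *Ccnd2*, in ESCs, at day 5 and over E14 differentiation, the part of RNA from fibroblasts or of cells that express these markers was not tested.

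**Figure D4:**
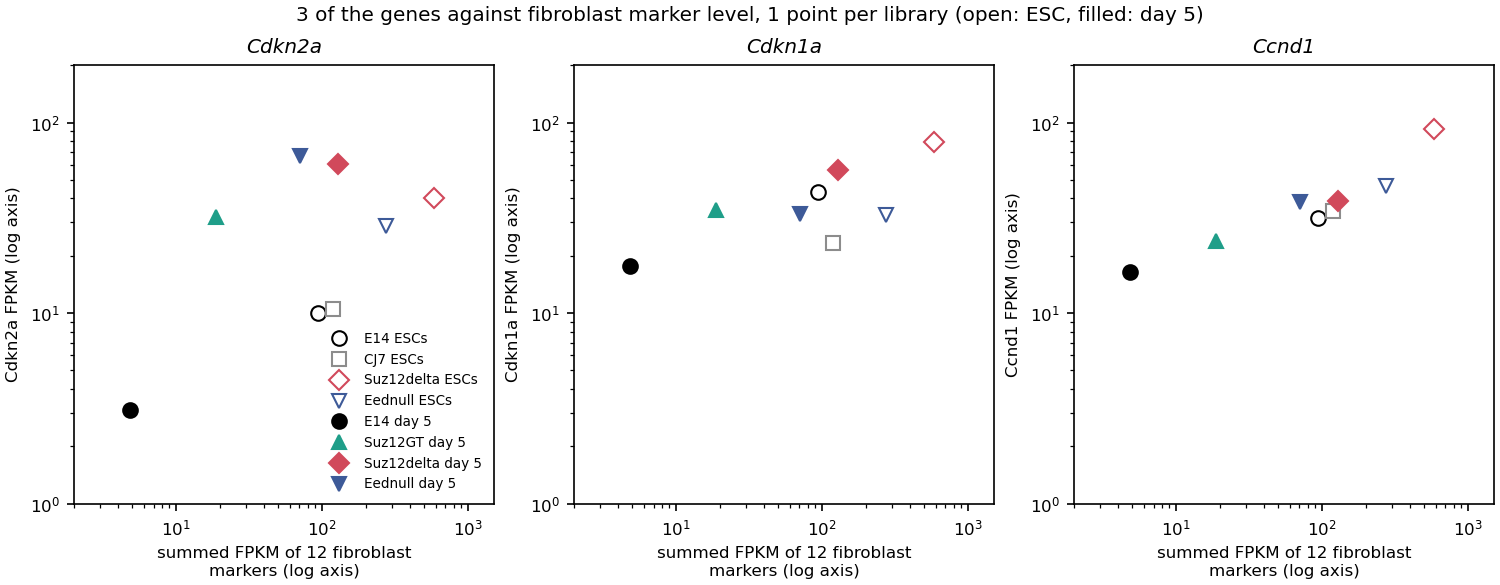
FPKM of *Cdkn2a*, *Cdkn1a* and *Ccnd1* against the summed FPKM of 12 fibroblast markers, both on log axes, with 1 point per library, open for ESCs and filled for day 5. *Ccnd1* goes up from 16.4 to 92.2 FPKM along the marker sum, with the Eednull day 5 value out of order. *Cdkn2a* goes up with it within each stage apart from Eednull day 5 cells, but is higher in Suz12GT day 5 cells (sum 18.8) than in E14 ESCs (sum 93.5).

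The rest of the Ink4 neighbourhood was read from the annotation. Within 500 kb of *Cdkn2a* lie 35 other annotated genes, of which 25 reached 0.1 FPKM in at least 1 library. The nearest that was well expressed, *Mtap* (a purine salvage enzyme, 93.4 kb away), differed by less than 2-fold among the libraries: 19.3 FPKM in E14, 12.7 in CJ7, 20.5 in Suz12delta and 21.9 in Eednull ESCs, and 14, 14, 22.3 and 17.6 in E14, Suz12GT, Suz12delta and Eednull cells at day 5. The lincRNA *Gm12602*, 146.2 kb away, was at 0.296 FPKM in E14, 0.192 in CJ7, 6.05 in Suz12delta and 1.21 in Eednull ESCs, and at day 5 was listed at 0 in E14 and at 0.55, 0.899 and 2.21 in Suz12GT, Suz12delta and Eednull cells. It was thus higher in the mutants at both stages, as *Cdkn2a* was. *Dmrta1*, a DM-domain gene 405.6 kb away on the other side, stayed under 1 FPKM throughout, with 0.00868 in E14 and 0.227, 0.477 and 0.762 FPKM in Suz12GT, Suz12delta and Eednull day 5 cells. In ESCs it went the other way, with 0.256 FPKM in E14, 0.104 in CJ7, 0.052 in Suz12delta and 0.107 in Eednull cells. The rest stayed under 3 FPKM in every library, and the interferon genes *Ifna4*, *Ifna5* and *Ifnz* under 1 FPKM. Values of such multigene families are uncertain because reads can be shared between near-identical copies.

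Known regulators of the Ink4 locus, 17 genes, included some with large differences. At day 5, 5 of 17 were at least 2-fold above E14 in Suz12GT (16.8% of all genes), 6 in Suz12delta (26.6%) and 6 in Eednull cells (21.6%), with list medians of 0.17, 0.67 and 0.13 against 0.13, 0.26 and 0.08 for all genes. *Tbx3*, a T-box repressor of Arf, was at 0.0815 FPKM in E14 day 5 cells and at 7.13, 14.5 and 10.4 in Suz12GT, Suz12delta and Eednull day 5 cells. *Tbx2*, its close relative, was at 0.242 FPKM in E14 and at 2.64, 7.35 and 5.06 in the same order. *Ets1*, an activator of p16Ink4a transcription, was listed at 0 in E14 day 5 cells and at 1.54, 7.40 and 8.14 FPKM in the mutants. *Ets2* (3.87 in E14, then 5.59, 26.8 and 23.4 FPKM) and *Twist1* (0.253, then 3.18, 4.05 and 3.29 FPKM) were also higher in both null lines. Repressors and activators of the locus are thus both among the genes with higher values. At least 2-fold below E14 at day 5 were 1 of 17 in Suz12GT (4.4% of all genes), 1 in Suz12delta (9.52%) and 0 in Eednull cells (11.3%). The lower gene was *Cbx7*, a repressor of the locus, at 18.8 FPKM in E14 day 5 cells. It was at 6.49 FPKM in Suz12GT, 8.51 in Suz12delta and 20.5 in Eednull day 5 cells. In ESCs 3 of 17 were at least 2-fold above E14 in Suz12delta (18.0% of all genes) and 3 in Eednull cells (22.4%). Below E14 were 2 in Suz12delta (22.8%) and 2 in Eednull cells (11.9%). The genes above E14 were *Ets1* and, of the Polycomb complex PRC1, *Bmi1* and *Cbx8*, in both null lines. *Ets1* was at 5.79 and 5.04 FPKM against 2.22 in E14, and was listed at 0 in wild-type CJ7 ESCs. *Bmi1* was at 7.35 and 10.5 FPKM against 3.34 in E14 and 4.16 in CJ7, while *Cbx8* was also higher in CJ7 (log2 ratio to E14 1.57) and Eednull ESCs exceeded CJ7 by 0.55 only. *Cbx7*, another PRC1 member, was below E14 in both null lines, at 13.5 and 28.8 against 61.5 FPKM, but CJ7 had 39.8 FPKM and the log2 ratio of Eednull to CJ7 ESCs was -0.46, under 2-fold. Over E14 differentiation 2 of 17 were at least 2-fold higher (18.3% of all genes), *Cbx8* (log2 ratio 3.60) and *Bmi1* (2.34). The *Cbx8* ratio starts from 0.133 FPKM in E14 ESCs, near the minimum of 0.1 FPKM. CJ7 ESCs had 0.592 FPKM of *Cbx8* and E14 day 5 cells 2.72. At least 2-fold lower were 6 (25.8%): *Tbx3* (-7.22), *Ets1* (-4.53), *Twist1* (-2.31), *Cbx7* (-1.71), *Eed* (-1.55) and *Suz12* (-1.34). The *Ets1* ratio rests on the 0 listed in E14 day 5 cells. CJ7 ESCs, also listed at 0, had the same ratio of -4.53 to E14 ESCs. From ESCs to day 5 *Tbx3* changed by -0.44 in Suz12delta and -0.21 in Eednull cells, under 2-fold. *Ets1* (0.35 and 0.68) and *Twist1* (0.47 and -0.02) also changed by less than 2-fold there. *Tbx2* and *Ets2* differed from these: they changed by 0.28 and -0.41 in E14 cells. In Suz12delta and Eednull cells *Tbx2* changed by 3.95 and 3.37, and *Ets2* by 1.66 and 1.89.

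The p53 pathway, 18 genes, had 11 members at least 2-fold lower over E14 differentiation (25.8% of all genes) and 0 higher (18.3%). The median log2 ratio was -1.16, against -0.20 for all genes. *Perp*, a membrane protein of p53-dependent death, was at 8.95 FPKM in E14 ESCs and 0.381 at day 5. *Pmaip1* (Noxa, a BH3-only protein) was at 12.3 and then 0.606 FPKM, *Gadd45a* at 43.8 and 8.73, and *Mdm2*, the ubiquitin ligase of p53, at 79.5 and 19.6. *Trp53* itself was at 134 FPKM in E14 ESCs and at 49.5 at day 5. At day 5, 4 of 18 were at least 2-fold above E14 in Suz12GT (16.8% of all genes) and 5 in Suz12delta (26.6%) and in Eednull cells (21.6%), so these counts were close to the shares of all genes. The medians were 0.35, 0.62 and 0.55, against 0.13, 0.26 and 0.08 for all genes. The 5 that passed in both null lines were *Perp* (17.0 and 12.3 FPKM in Suz12delta and Eednull cells), *Pmaip1* (9.17 and 8.10), *Phlda3* (35.5 and 35.9, with 7.70 in E14), *Plk2* (20.7 and 14, with 6.66 in E14) and *Mdm2* (50.4 and 43.6). *Cdkn1a* stood with these genes in being lower over E14 differentiation and higher in all 3 mutants at day 5, under 2-fold in Suz12GT and Eednull cells. Pluripotency markers had the same directions: 8 of 8 were at least 2-fold lower over E14 differentiation (median log2 ratio -8.98), against 25.8% of all genes. At day 5, 7 of the 7 measured were at least 2-fold higher in Suz12GT (2.65), 8 of 8 in Suz12delta (3.11) and 4 of 6 in Eednull cells (1.18). The shares of all genes were 16.8%, 26.6% and 21.6%. Their summed FPKM at day 5 was 1.23 in E14, 11.5 in Suz12GT, 17.4 in Suz12delta and 7.48 in Eednull cells, and their part in the values of the p53 pathway genes was not tested. In ESCs *Bbc3* and *Sesn2* were at least 2-fold below E14 in both null lines, but also in CJ7, at log2 ratios of -1.63 and -1.30.

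The partners and targets of these regulators differed less. Of the CDK partners and E and A cyclins, 8 genes, 0 were past 2-fold in Suz12GT day 5 cells, and *Cdk6* alone was in both null lines at day 5, at 5.10 and 3.95 FPKM against 1.83 in E14. *Cdk4* was at 405 FPKM in E14 day 5 cells and between 401 and 486 in the mutants. *Cdk6* and *Ccne1* were lower over E14 differentiation, by log2 ratios of -1.94 and -1.66. Of the pocket proteins and E2F factors, 13 genes, *Rb1* and *E2f2* were at least 2-fold higher over E14 differentiation, and *Rb1* was at 19.5 FPKM in E14 and 9.32 in Eednull day 5 cells. Among genes of S phase and mitosis, 0 of 19 measured genes were past 2-fold in any mutant at day 5 in either direction, with medians of -0.34 in Suz12GT, 0.23 in Suz12delta and 0.09 in Eednull cells. The medians of all genes were 0.13, 0.26 and 0.08. Of all genes, 16.8%, 26.6% and 21.6% were at least 2-fold higher and 4.4%, 9.52% and 11.3% lower, in the same order. In the null lines, which had the highest *Cdkn2a* at day 5, the S phase and mitosis medians were thus close to those of all genes. In Suz12GT cells, where *Cdkn2a* was also above E14, every measured gene of this list lay below E14, between -0.80 and -0.12. The motor neuron and neuronal marker sum was higher there too, at 507 FPKM against 313 in E14, although *Olig2* was lower. The part of cell make-up in these values was not tested. Suz12delta ESCs were the exception among ESCs: 7 of 19 S phase and mitosis genes, 5 of 8 partners and 7 of 13 pocket and E2F genes were at least 2-fold below E14, against 22.8% of all genes. The medians were -0.92, -1.20 and -1.06, against -0.28 for all genes, a median that scaling moved to 0.07. These values stood beside the lower pluripotency and higher fibroblast markers of that library. In Eednull ESCs the same counts were 0, 0 and 2 against E14 (11.9% of all genes) and 0, 0 and 1 against CJ7 (10.7%). *Tfdp2*, a dimer partner of E2F factors, was below E14 in both null ESC lines, by log2 ratios of -1.60 and -1.01, the latter -0.93 against CJ7. Over E14 differentiation *Ccnb1* and *Mcm3*, of mitosis and DNA replication, were lower, by -1.27 and -1.07.

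**Figure D5:**
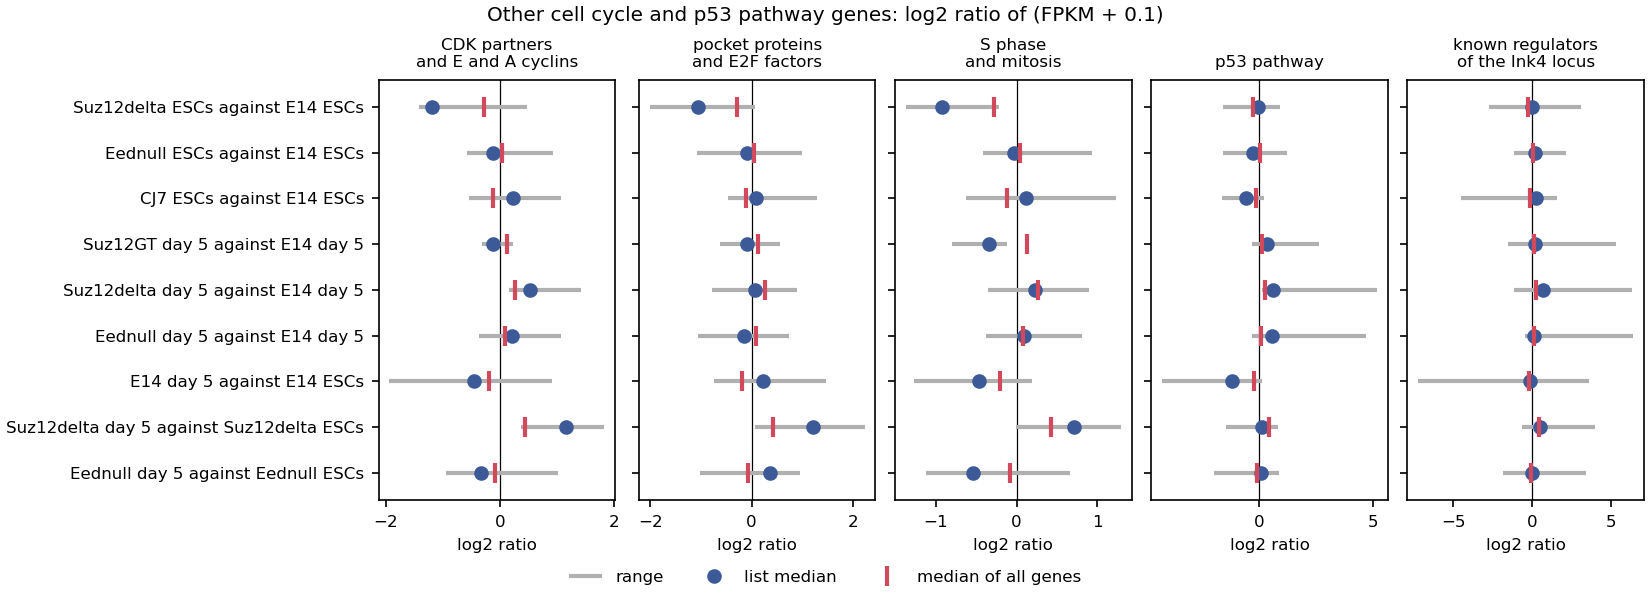
log2 ratio of FPKM plus 0.1 in each of the 9 comparisons for 5 gene lists, with the list median (blue), the range of its genes (grey bar) and the median of all genes (red tick), on an x axis of its own per list. S phase and mitosis genes lie at 0.23 and 0.09 in the null lines at day 5 and at -0.92 in Suz12delta ESCs.

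Genes with the most similar profile were ranked by Pearson's r of log2 FPKM plus 0.1 over the 8 libraries, among the 13280 genes that reached 5 FPKM anywhere. For *Cdkn2a* these were *Hoxa9* (0.986), *P4ha3* (0.975), *Vamp8* (0.972), *Enpp1* (0.971) and *Krt19* (0.971), and *Cdkn2b* had 0.881. For *Cdkn1a* they were *2210403K04Rik* (0.958), *Plk2* (0.957), *Znfx1* (0.955), *Mef2d* (0.954) and *Bcap31* (0.951), and for *Ccnd2* *Phldb1* (0.981), *2310016C08Rik* (0.974), *Pdzrn3* (0.971), *Gstm5* (0.971) and *Bnip2* (0.970). Over 8 libraries and so many genes such values describe these libraries only, and the points share their lines and batches.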

How the data were processed

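RNA-seq values of 8 libraries were used. The FPKM per gene were deposited by the authors, who aligned reads with Bowtie 0.12.7 and TopHat 1.3.2 to NCBI build 37 (mm9) and ran Cuffdiff of Cufflinks 1.2.1 on an Ensembl-based annotation, correcting for sequence bias and multiply mapped reads. Bias correction and separate runs can shift single values. An exact 0 was read as listed at 0, since up to 5 genes per library were at 0 with 10 FPKM or more in all others. From these values log2 ratios were computed with a pseudocount of 0.1, which understates differences of low genes, for genes that reached 0.1 FPKM in either library. No rescaling was applied. With 1 library per condition no test was made and a 2-fold line was used. Depth is unknown: the FPKM steps gave no whole reads, and at most 2.28% of low genes shared a ratio.

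The genes and 10 lists were chosen with earlier results of these data known. All 9 genes are named, with examples of list genes at least 2-fold from E14 in the same direction in both null lines of a stage or at least 2-fold over E14 differentiation (at most 6 per list and comparison), genes within 500 kb of *Cdkn2a*, and the 5 most similar profiles of 3 genes. Other genes named are targeted, overlapping or marker genes. Of 115 list genes 113 were found once. *Cdt1* and *Tubb3* were under 0.1 FPKM in every library and may be failed estimates. Coordinates are from GENCODE vM1, which held 36104 of 36808 identifiers. The code was tested on simulated data. Alternatives were a pseudocount of 1 or 0.01, the minimum raised to 1 FPKM or dropped, 75th percentile scaling over 17842 genes, 4-fold, CJ7 as wild-type and, added after the data were seen, leaving out mutant libraries. Python 3.11.15, NumPy 2.4.6, pandas 2.3.3 and matplotlib 3.10.9 were used.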

Additional observations from a re-analysis of the deposited data

Results flagged for a closer look

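Some changes over differentiation had the opposite sign in a null line and in E14 and lay at least 2-fold apart. With 1 library per condition these differences were not tested. For *Cdkn2a* the log2 change from day 0 to day 5 exceeded that of E14 by 2.25 in Suz12delta and by 2.87 in Eednull cells, although the Suz12delta change of 0.59 was 0.21 after 75th percentile scaling. For *Cdkn2b* in Suz12delta cells the difference was 3.64, of which nearly all was the E14 change of -3.46, and the Suz12delta change of 0.18 was -0.20 after 75th percentile scaling. *Cdkn2d* in Eednull cells differed by -1.70 and *Cdkn1a* in Eednull cells by 1.31, where the Eednull changes themselves were -0.03 and 0.02. The label of CJ7 ties the Eednull ESC library to the CJ7 batch and says nothing of the day 5 library, so stage and batch cannot be told apart in the Eednull changes.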

How the results depend on the processing

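Each condition was 1 library, so no replicate could be left out. No paired analysis was possible because the results come from no test. Of 422 recomputed log2 ratios of single genes, 409 kept their side of the 2-fold line, 13 crossed it, and 0 of those past 2-fold changed sign. Counts of genes past 2-fold moved by over 1.5 times as follows. With 75th percentile scaling, 0 genes were lower in Suz12delta than E14 ESCs (*Cdkn1b* at -0.82) and 0 were higher over Suz12delta differentiation. With a pseudocount of 1 FPKM, 2 were higher in Eednull ESCs (*Ccnd2* at 0.98 and *Cdkn2c* at 0.96), 0 in CJ7 ESCs and 1 over Suz12delta differentiation, and 0 were lower in Suz12delta day 5 cells (*Cdkn2d* at -0.98). With a minimum of 1 FPKM, 0 were higher in CJ7 ESCs. Against CJ7, 0 were lower in Suz12delta ESCs. At 4-fold, against E14 1 was higher in Suz12delta (6.94%), 1 in Eednull (6.8%) and 0 in CJ7 ESCs (5.06%). At day 5, 2 were higher at 4-fold in Suz12delta (12.5%) and 2 in Eednull cells (10.1%). At 4-fold 0 were lower in Suz12delta ESCs (5.08%), or at day 5 in Suz12delta (3.74%) or Eednull cells (4.27%). Over differentiation, 1 was higher (7.72%) and 1 lower (11.8%) at 4-fold in E14. In Suz12delta cells 0 were higher (7.09%) and 0 lower (5.0%), and in Eednull cells 0 were higher (6.18%). Without the Eednull ESC library, 5 genes in place of 3 were at least 2-fold above both wild-type ESC lines, against 13.7% of all genes in place of 4.5%. The cause of these moves was not tested. Among values under 2-fold, *Ccnd3* in Suz12delta ESCs was -0.13 and 0.24 after scaling, and *Cdkn1a* and *Cdkn1b* in Eednull ESCs were -0.40 and -0.44 against E14 but 0.47 and 0.17 against CJ7. Single low values such as *Cdkn2b* in E14 day 5 cells carry an unknown counting error.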
